A study of Homo sapiens with 12 samples.

Results

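The 10 genes described here belong to the integrated stress response, a translation programme built around the transcription factor ATF4. They were taken from the deposited table by Ensembl identifier, 10 of 19580 genes, and all 10 passed the filter on low values (at least 1 RPKM in at least 3 libraries) that left 11510 genes for testing. RPKM is a read count scaled for the length of the transcript and the total reads of its library. In this response, stress-activated kinases phosphorylate the initiation factor eIF2, most mRNAs are initiated less often, and a few mRNAs with short upstream open reading frames (uORFs) in their leaders are translated more. ATF4 is the best known of these mRNAs, and its protein then switches on genes for amino acid supply, redox balance and the end of the response. The members were therefore divided by what is known of them into 4 uORF-controlled mRNAs (ATF4, DDIT3, PPP1R15A and ATF5) and 6 transcriptional targets (TRIB3, CHAC1, SESN2, ASNS, PSAT1 and PHGDH). The line between them is not sharp, since DDIT3, PPP1R15A and ATF5 are also known to be transcribed more in this response.

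The values are ribosome footprints of wild-type HAP1 cells, a near-haploid line derived from the leukaemia line KBM-7. There were 3 biological replicates each of cells given 4-thiouridine (4SU, 5 uM, 18 h) and then UVA light (6 kJ per square metre, 30 min of recovery), of cells given 4SU alone, of cells given UVA alone, and of untreated cells. Light-excited 4SU in RNA forms bonds with protein, so the doubly treated cells are those in which the study set out to place RNA-protein crosslinks. The 12 libraries held 1899854 to 5832366 reads, and a member had between 20 and 4529 reads in a library. Within a group, log2 values of replicates correlated over genes with r between 0.982 and 0.991, and differed by more than counting error (chi-square of 1.69 to 5.24 per gene). No matched RNA measurement was used here, so a higher footprint density can reflect more mRNA or more ribosomes on each mRNA, and the 2 cannot be told apart. Nor does a value per gene show whether footprints lay on an upstream frame or on the main one. Markers of HAP1 cells and the other genes of the pathway were not analysed here, because the table names genes only by Ensembl identifier and 0 entries of the gene table at hand carried one.

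All 10 members changed in 4SU+UVA cells against untreated cells, in 2 directions. The 4 uORF-controlled mRNAs rose, by 2.19-fold to 6.23-fold. Of the 6 transcriptional targets, TRIB3, CHAC1 and SESN2 rose by 1.33-fold to 1.63-fold, while ASNS, PSAT1 and PHGDH, which make asparagine and serine, fell by 0.79, 0.59 and 0.62 on the log2 scale. Calls were also common among genes at large, and 59% of all genes tested passed in this comparison (limma, adjusted p under 0.05), 40.6% higher and 18.4% lower, and the groups did not overlap at 63.7% of genes, against 10 of 10 members. The median log2 change was 1.84 over the 4 uORF-controlled mRNAs and 0.23 over all genes tested. The 6 targets had a median of -0.09. The members were chosen with earlier results of these data known, so their counts and medians were set beside all genes without a test.

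**Figure D1:**
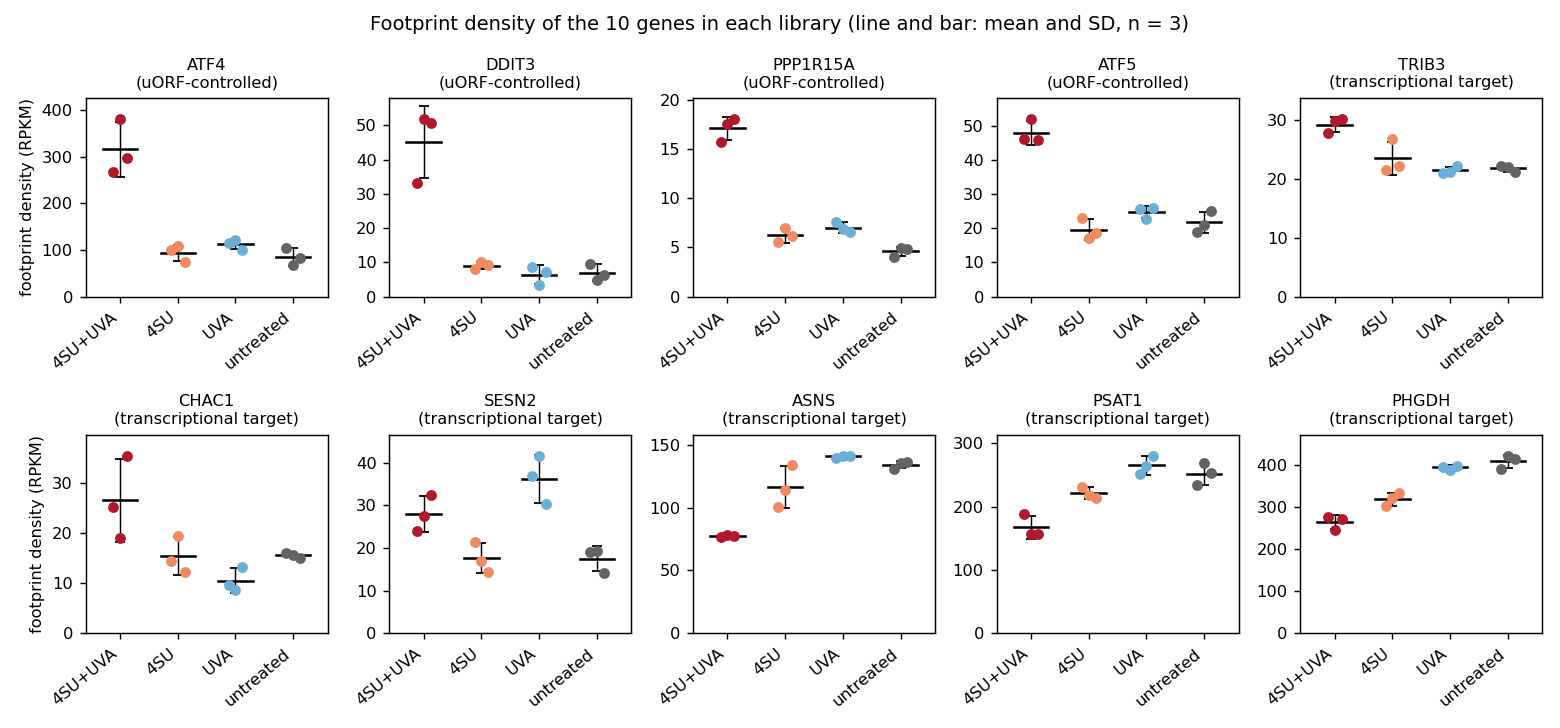
Footprint density (RPKM, each vertical axis from 0) of the 10 genes in each library of 4SU+UVA, 4SU, UVA and untreated cells, where points are libraries and the line and bar are the mean and SD (n = 3). In 4SU+UVA cells 5 genes lay above every library of the other groups and 3 below, CHAC1 overlapped 4SU, and SESN2 was highest with UVA alone.

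ATF4, on chromosome 22 (ENSG00000128272.18, 39520559 to 39522686, GRCh38.p14; counted on a transcript of 2019 nt), encodes the basic leucine zipper factor at the head of the programme. Its footprints lay at 268, 380.1 and 298 RPKM in the 4SU+UVA libraries, 99.2, 108 and 74.3 RPKM with 4SU, 115, 120.5 and 101 RPKM with UVA, and 105, 67.0 and 81.9 RPKM in untreated cells. Every doubly treated library lay far above the other 9, among which neighbouring groups in the order of level overlapped. The mean of 315 ± 58.0 RPKM against 84.7 ± 19.2 RPKM in untreated cells (SD, n = 3 each) amounted to 3.73-fold (limma log2 1.90, SE 0.16, adjusted p = 3.6e-07). That change was the 58th highest of the 11510 genes.

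DDIT3, also called CHOP, is a basic leucine zipper factor linked to cell death in prolonged stress, and lies on chromosome 12 (ENSG00000175197.13, 57516588 to 57520517). It had 33.1, 51.8 and 50.8 RPKM with 4SU+UVA, 7.98, 10.1 and 9.13 RPKM with 4SU, 8.65, 3.45 and 7.31 RPKM with UVA, and 9.66, 4.79 and 6.43 RPKM in untreated cells. The doubly treated libraries again stood clear of the rest, and the other groups overlapped. It was 6.23-fold higher than in untreated cells (limma log2 2.64, SE 0.28, adjusted p = 2.7e-06), a change larger than in any other member and the 14th highest of all genes tested. Read numbers were low, 105 to 195 per 4SU+UVA library and 27 to 40 per untreated library. In the RefSeq annotation the gene overlaps MARS1 by 65 bases and the protein-coding entry LOC128125814 by 2769 bases, and how reads shared by such genes were counted is not given in the sources used here.

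PPP1R15A, also called GADD34, brings a phosphatase to eIF2 and so ends the response, and lies on chromosome 19 (ENSG00000087074.8, 48872421 to 48876058). On average over the libraries it was the sparsest member, with 15.7, 17.5 and 18.0 RPKM in 4SU+UVA cells, 5.54, 6.98 and 6.13 RPKM with 4SU, 7.60, 6.82 and 6.55 RPKM with UVA, and 4.05, 4.92 and 4.82 RPKM in untreated cells. The untreated libraries lay below all others, the 4SU and UVA libraries overlapped, and the doubly treated ones lay highest. Against untreated cells it rose 3.45-fold with 4SU+UVA (log2 1.79, SE 0.12, limma adjusted p = 3.8e-08).

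ATF5, a relative of ATF4 known for its part in mitochondrial stress, lies on chromosome 19 (ENSG00000169136.13, 49928906 to 49933935). It had 46.1, 51.9 and 45.7 RPKM with 4SU+UVA, 23.0, 17.2 and 18.7 RPKM with 4SU, 25.7, 22.7 and 26.0 RPKM with UVA, and 19.0, 20.9 and 25.2 RPKM in untreated cells. It showed the smallest rise of the 4, 2.19-fold (log2 1.13, SE 0.12, limma adjusted p = 2.4e-06), with no overlap between 4SU+UVA and any other group. The gene overlaps NUP62 and IL4I1 by 599 bases each in the RefSeq annotation.

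Summed over the 4 uORF-controlled mRNAs, density was 425 ± 70.1 RPKM with 4SU+UVA, 129 ± 18.1 RPKM with 4SU, 151 ± 8.62 RPKM with UVA and 118 ± 20.1 RPKM in untreated cells (SD, n = 3 each). ATF4 made up most of each sum. Densities are per length of the whole transcript, leaders and tails included, so the order of levels between genes also depends on how much of each transcript is coding.

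**Figure D2:**
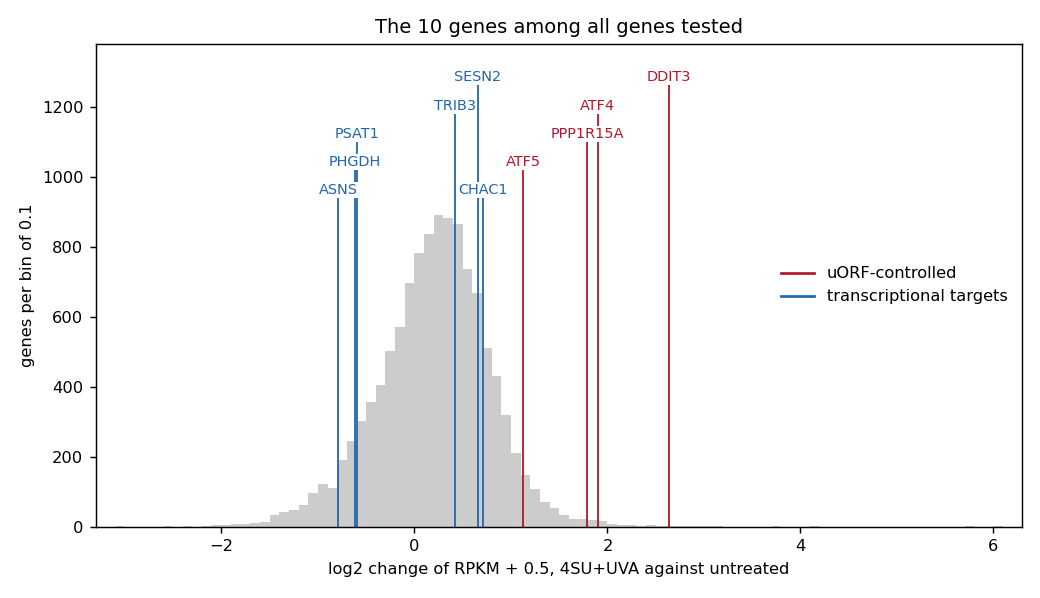
Number of genes (bins of 0.1) by log2 change of RPKM + 0.5 in 4SU+UVA against untreated cells, for all 11510 genes tested, with the 10 genes marked as lines. The 4 uORF-controlled mRNAs lie in the right tail, from 1.13 to 2.64, while the transcriptional targets lie between -0.79 and 0.71.

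TRIB3, a pseudokinase that restrains AKT signalling and ATF4 itself, lies on chromosome 20 (ENSG00000101255.12, 380760 to 397559). Its densities were 27.8, 29.9 and 30.2 RPKM with 4SU+UVA, 21.5, 26.8 and 22.3 RPKM with 4SU, 21.0, 21.3 and 22.2 RPKM with UVA, and 22.3, 22.0 and 21.2 RPKM in untreated cells. The rise was small but clear of the narrow spread of the untreated libraries (1.33-fold, log2 0.42, SE 0.09, limma adjusted p = 0.0011). Relative to the median gene, which itself moved by 0.23 in this comparison, it came to 0.18, and with libraries set to a common median the fitted change was 0.25 (limma adjusted p = 0.033).

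CHAC1, an enzyme that breaks down glutathione, lies on chromosome 15 (ENSG00000128965.13, 40953471 to 40956512). It had 25.2, 19.0 and 35.4 RPKM with 4SU+UVA, 14.5, 19.5 and 12.2 RPKM with 4SU, 9.60, 8.73 and 13.3 RPKM with UVA, and 16.0, 15.7 and 15.1 RPKM in untreated cells. The 3 doubly treated libraries were spread widely, and the lowest of them, resting on 55 reads, fell within the range of the 4SU libraries. The rise over untreated cells was 1.63-fold (log2 0.71, SE 0.20, limma adjusted p = 0.0086). Without 4SU+UVA replicate 3, at 35.4 RPKM, the log2 change was 0.48, with a limma adjusted p that rounds to 0.05.

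SESN2, a sestrin that restrains mTORC1 and is also known as a target of p53 and NRF2, lies on chromosome 1 (ENSG00000130766.5, 28259518 to 28282491). By group means it was the only member at which 4SU+UVA was neither highest nor lowest. It had 24.1, 27.4 and 32.4 RPKM with 4SU+UVA, 21.4, 17.0 and 14.4 RPKM with 4SU, 36.8, 41.6 and 30.3 RPKM with UVA, and 19.1, 19.4 and 14.1 RPKM in untreated cells. Both irradiated groups overlapped each other and lay above both groups kept from UVA, which overlapped as well. Against untreated cells it rose by 1.58-fold with 4SU+UVA (log2 0.66, SE 0.16, limma adjusted p = 0.003).

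The 3 enzymes of amino acid synthesis were the most densely covered targets and fell together. ASNS, asparagine synthetase on chromosome 7 (ENSG00000070669.17, 97851677 to 97928441), had 76.6, 78.0 and 77.4 RPKM with 4SU+UVA, 100.4, 114 and 134 RPKM with 4SU, 139.7, 141 and 141 RPKM with UVA, and 131, 135 and 136 RPKM in untreated cells. The doubly treated libraries were tightly grouped and lowest, and the 4SU libraries ran from well below the untreated ones to within their range. The fall was to 0.579 of the untreated level (log2 -0.79, SE 0.08, limma adjusted p = 1.7e-06), the 593rd lowest change of the 11510 genes.

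PHGDH, which catalyses the first step from glycolysis into serine, lies on chromosome 1 (ENSG00000092621.13, 119711934 to 119744215). It had 277, 246 and 272 RPKM with 4SU+UVA, 302, 320.2 and 332 RPKM with 4SU, 395, 388 and 398 RPKM with UVA, and 391, 421 and 413 RPKM in untreated cells. Both groups that carried 4SU lay below both that did not, the doubly treated one lowest (log2 -0.62, SE 0.06, limma adjusted p = 6.6e-07 for 4SU+UVA against untreated). PSAT1, the next enzyme on that path, lies on chromosome 9 (ENSG00000135069.14, 78297125 to 78330093) and had 188, 156 and 157 RPKM with 4SU+UVA, 231, 219 and 213 RPKM with 4SU, 251, 264 and 279.9 RPKM with UVA, and 234, 268 and 253 RPKM in untreated cells. Its groups had the same order, except that UVA lay above untreated with overlap (log2 -0.59, SE 0.08, limma adjusted p = 1.5e-05 for 4SU+UVA against untreated). ASNS overlaps the long non-coding RNA entry CZ1P-ASNS by 76325 bases in the RefSeq annotation. RefSeq lists 4 pseudogenes of ATF4, 5 of ASNS and 4 of PSAT1, and how reads that match a gene and its copy were counted is not given in the sources used here, so the levels of these 3 genes are uncertain to that extent.

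Summed over ASNS, PSAT1 and PHGDH, density was 509.6 ± 30.7 RPKM in 4SU+UVA cells, 655 ± 22.7 RPKM with 4SU, 799.7 ± 17.5 RPKM with UVA and 793 ± 34.1 RPKM in untreated cells (SD, n = 3 each). All 10 members together took 0.194 ± 0.00848% of reads with 4SU+UVA, 0.158 ± 0.00336% with 4SU, 0.194 ± 0.00117% with UVA and 0.181 ± 0.00181% in untreated cells.

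Genes of different length and abundance differed in their changes, so each member was set beside the genes of its own class. There were 5 equal classes of transcript length and 5 of mean RPKM, drawn after the data had been seen. Mean RPKM was taken over all libraries, those of 4SU+UVA included, so a member's own change helped to set its class. DDIT3, for example, was classed at 16.9 RPKM, while its mean in untreated cells was 6.96 RPKM. Medians of the members' classes ran from -0.20 to 0.40. The class of ATF4 held 565 genes whose median log2 change was 0.01 and of which 5% lay above 0.70. DDIT3 at 2.64, PPP1R15A at 1.79 and ATF5 at 1.13 also lay beyond the value that the highest 5% of their classes exceeded (1.07, 1.03 and 0.91). TRIB3 and CHAC1 at 0.42 and 0.71 lay within theirs, which were 0.83 and 0.91. SESN2 at 0.66 lay just under its value of 0.67, in a class of 463 genes in which 125 rose and 209 fell (median -0.14). PSAT1 stood out at -0.59 in a class of 979 genes of which 594 rose and 95 fell, with a median of 0.28 and the lowest 5% below -0.37. PHGDH at -0.62 was well under its class median of 0.01 but not among its lowest 5% (below -0.72). ASNS at -0.79 belonged to a class of 398 genes in which 201 fell and 89 rose (median -0.20, lowest 5% below -1.02). The part of length and abundance in the members' changes was not tested.

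The promoter stretches of ASNS and CHAC1 below are shown because ATF4 and its partners are known to bind the C/EBP-ATF response element (CARE). They hold the only CARE matches among members, before a target that fell (ASNS) and a target that rose (CHAC1). The stretches of PPP1R15A and DDIT3 mark matches to other motifs searched, and no CARE match was found in their windows. Sequences are from RefSeq (GRCh38.p14), each window holding 250 bases before and 50 after a start site, with 17 windows for the 10 members. The motifs searched on both strands were CARE (TGATGNAA), the cAMP response element CRE (TGACGTCA) and the AP-1 site (TGANTCA). In the lines below, 80 bases are written 5′ to 3′ on the gene's strand, with the match in capitals. These are ASNS (chr7:97872433-97872512, minus strand), CHAC1 (chr15:40953226-40953305, plus strand), PPP1R15A (chr19:48872327-48872406, plus strand) and DDIT3 (chr12:57520685-57520764, minus strand).
ASNS: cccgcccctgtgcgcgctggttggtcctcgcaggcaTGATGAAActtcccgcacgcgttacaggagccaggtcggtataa
CHAC1: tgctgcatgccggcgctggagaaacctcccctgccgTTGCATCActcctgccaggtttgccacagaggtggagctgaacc
PPP1R15A: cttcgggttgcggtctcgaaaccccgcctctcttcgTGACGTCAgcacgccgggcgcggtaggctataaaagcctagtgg
DDIT3: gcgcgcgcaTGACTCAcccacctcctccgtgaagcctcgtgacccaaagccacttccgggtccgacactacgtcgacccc
CARE letters were found in the windows of 2 of the 10 members, ASNS (from position -68 to -61 relative to the start site) and CHAC1 (from -209 to -202, where it reads on the opposite strand), against 4.46% of 27305 genes with a promoter entry. ASNS fell and CHAC1 rose with 4SU+UVA. Among members, CRE letters were found in PPP1R15A alone (from -58 to -51), against 2.25% of genes, and AP-1 letters in DDIT3 (from -241 to -235) and ATF5, against 9.37%. A gene with more windows has more chances of a match, and the 10 members had 17 windows, against 35116 windows for the 27305 genes. Of those 35116 windows, 3.62% held CARE letters, 1.85% CRE letters and 7.71% AP-1 letters. These matches are letters in a window and not measured binding sites. Sites outside the windows or in other letters were not searched, so a member without a match may still have such an element.

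What 4SU does to the programme without light was read from 4SU against untreated cells. Only PHGDH (lower) and PPP1R15A (higher) passed, 2 of 10 members, where 14.4% of all genes did (limma, adjusted p under 0.05), 11.3% higher and 3.12% lower, and 3 of 10 members did not overlap between groups, where 35.3% of genes did not. PHGDH fell to 0.78 of the untreated level (log2 -0.36, SE 0.06, limma adjusted p = 0.0017). PPP1R15A rose by 1.32-fold (log2 0.40, SE 0.12, limma adjusted p = 0.039), a call that was lost under median centring (0.27, limma adjusted p = 0.15), quantile normalization (0.23, adjusted p = 0.26), no low-value filter (adjusted p = 0.063) and a fit of only the groups compared (adjusted p = 0.079), and without 4SU replicate 2, 4SU replicate 3 or any 1 untreated replicate (limma adjusted p of 0.057 to 0.16). ATF4 differed by 0.15 (95% interval -0.20 to 0.50) and DDIT3 by 0.41 (95% interval -0.20 to 1.01), and neither passed. ASNS and PSAT1 differed by -0.21 and -0.19 (limma adjusted p = 0.088 and 0.12). Both passed under median centring at -0.34 and -0.31 (limma adjusted p = 0.024 and 0.021), PSAT1 under quantile normalization at -0.21 (limma adjusted p = 0.047), and ASNS without 4SU replicate 3 at -0.32 (limma adjusted p = 0.0052).

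**Figure D3:**
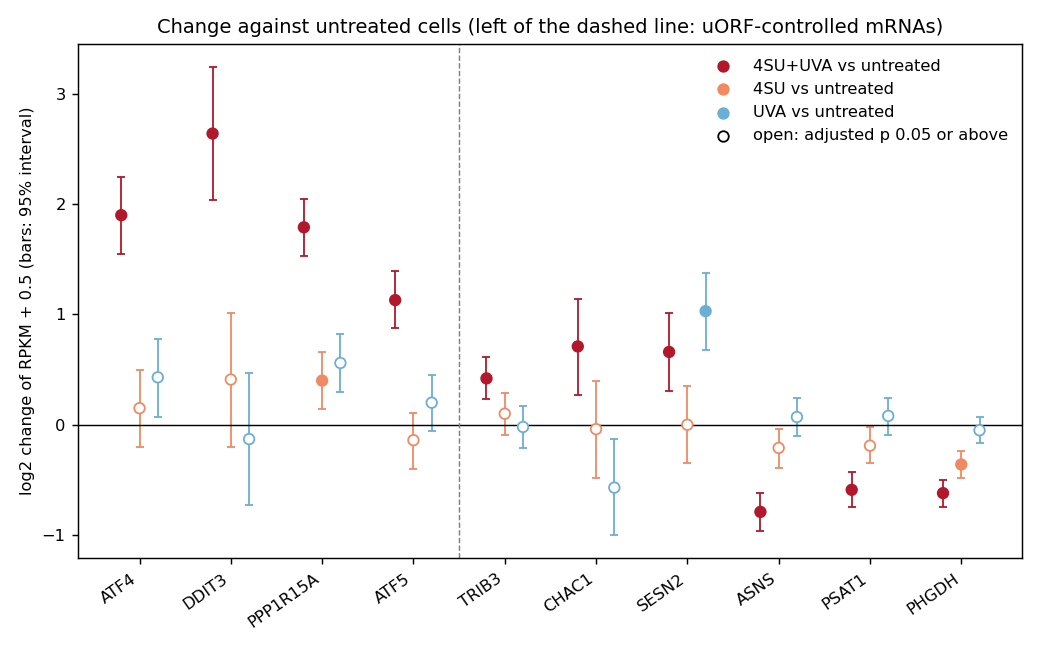
Log2 change of RPKM + 0.5 against untreated cells for 4SU+UVA, 4SU alone and UVA alone, where points are fitted changes, bars are 95% intervals from limma and open points did not pass at adjusted p under 0.05. All 10 genes passed with 4SU+UVA, 2 with 4SU and 1 with UVA.

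UVA light alone passed at 1 member, SESN2, where 0.652% of all genes did (limma, adjusted p under 0.05), 0.278% higher and 0.374% lower. SESN2 rose 2.04-fold (log2 1.03, SE 0.16, limma adjusted p = 0.0042) and had the 30th highest change of all genes tested. Without the variance trend this call was lost at the same log2 change of 1.03 (limma adjusted p = 0.05, against 0.0039 to 0.039 under the other alternatives), which left 0 members called, with 4 at an unadjusted p under 0.05. PPP1R15A lay above every untreated library in every UVA library and missed the threshold (1.47-fold, log2 0.56, SE 0.12, limma adjusted p = 0.052), which it passed with a pseudocount of 0.1 (limma adjusted p = 0.044). CHAC1 lay below every untreated library in every UVA library, by -0.57 on the log2 scale (SE 0.20, limma adjusted p = 0.42), and ATF4 differed by 0.43 (SE 0.16, limma adjusted p = 0.47). Groups did not overlap at 4 of 10 members, where 16.8% of genes did not overlap. ASNS, PSAT1 and PHGDH differed by 0.07, 0.08 and -0.05, each with a 95% interval that included 0.

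In cells that carried 4SU, UVA changed all 10 members, 7 up and 3 down, where 44% of genes passed (4SU+UVA against 4SU), 25% higher and 19% lower. ATF4 rose 3.35-fold (log2 1.75, SE 0.16, limma adjusted p = 1.4e-06), DDIT3 4.7-fold (log2 2.23), PPP1R15A 2.62-fold (log2 1.39) and ATF5 2.42-fold (log2 1.27). The targets that rose were CHAC1 (0.75), SESN2 (0.66) and TRIB3 (0.32), and those that fell were ASNS (-0.57), PSAT1 (-0.40) and PHGDH (-0.26), with limma adjusted p from 5.4e-05 to 0.0098. The median of all genes was 0.09. CHAC1 was the only member whose libraries overlapped here, where 51% of genes did not overlap.

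Among irradiated cells, those with 4SU differed from those without at 9 members, 6 higher and 3 lower, where 54.4% of genes passed (4SU+UVA against UVA), 34.7% higher and 19.8% lower. Groups did not overlap at 9 members, where 59.4% of genes did not. ATF4 was 2.78-fold higher (log2 1.47, SE 0.16), DDIT3 6.83-fold (log2 2.77, SE 0.28), CHAC1 2.42-fold (log2 1.27, SE 0.20), PPP1R15A 2.35-fold (log2 1.23, SE 0.12), ATF5 1.91-fold (log2 0.94, SE 0.12) and TRIB3 1.36-fold (log2 0.44, SE 0.09), with limma adjusted p from 1.2e-06 to 0.00082. ASNS, PSAT1 and PHGDH fell by 0.86, 0.67 and 0.57 on the log2 scale (limma adjusted p of at most 5.5e-06). SESN2 was the exception at -0.37 (SE 0.16, limma adjusted p = 0.07), and under median centring it passed as lower (-0.46, limma adjusted p = 0.023), as it did in a fit of only the groups compared (-0.37, adjusted p = 0.041) and without 4SU+UVA replicate 3 or UVA replicate 3 (-0.48 and -0.49). These 2 comparisons and that with untreated cells share the 4SU+UVA libraries.

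Whether UVA acted differently in cells with and without 4SU was tested as an interaction, and 7 of the 10 members passed, 5 higher and 2 lower, where 24.8% of genes did, 10.7% higher and 14.1% lower. All 4 uORF-controlled mRNAs lay above the sum of both single treatments on the log2 scale. Their interactions were 2.37 for DDIT3 (SE 0.40, limma adjusted p = 0.00064), 1.32 for ATF4 (SE 0.23, adjusted p = 0.00088), 1.08 for ATF5 (SE 0.17, adjusted p = 0.00038) and 0.83 for PPP1R15A (SE 0.17, adjusted p = 0.0026). CHAC1 was the only target that passed above the sum (1.31, SE 0.29, limma adjusted p = 0.0042), and ASNS (-0.65, adjusted p = 0.00087) and PSAT1 (-0.48, adjusted p = 0.0047) lay below it. TRIB3 (0.34, limma adjusted p = 0.061), PHGDH (-0.21, adjusted p = 0.069) and SESN2 (-0.37, adjusted p = 0.26) did not pass. TRIB3 passed under median centring, quantile normalization and without 4SU replicate 2 (0.38, 0.42 and 0.44), and PHGDH under quantile normalization (-0.33) and without 4SU+UVA replicate 1 or 4SU replicate 1 (-0.25 each).

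**Figure D4:**
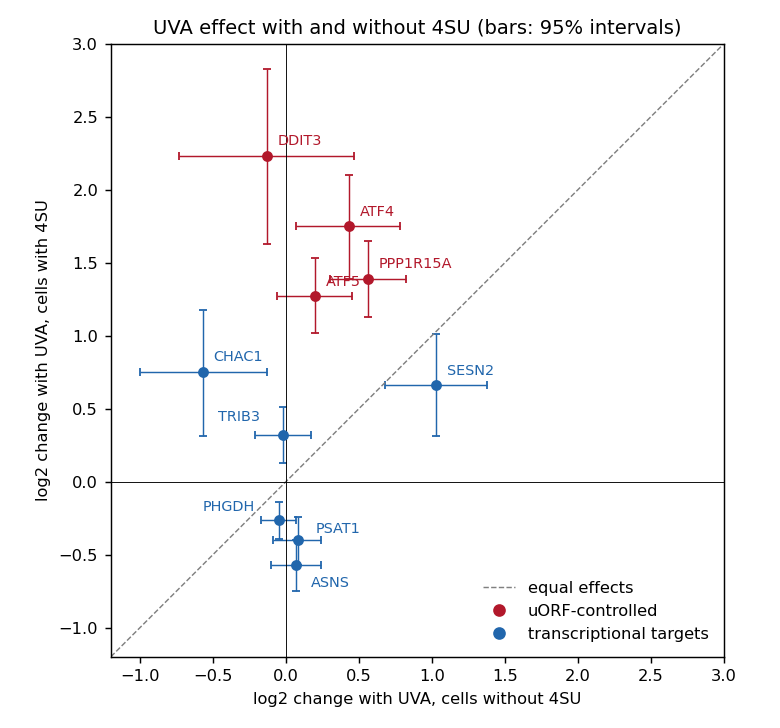
Log2 change with UVA in cells carrying 4SU (vertical, 4SU+UVA against 4SU) and in cells without it (horizontal, UVA against untreated) for the 10 genes, with 95% intervals from limma and a dashed line of equal effects. DDIT3, ATF4, ATF5, PPP1R15A and CHAC1 lie above the line and ASNS and PSAT1 below it, each past the test of the interaction, while TRIB3 (above), PHGDH and SESN2 (both below) did not pass it.

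Across the 12 libraries, the pattern of log2 density was compared between each of 3 members and 8130 tested genes of at least 5 RPKM on average. The closest gene to ATF4 was ENSG00000177425.11 (Pearson r = 0.987), and the closest to PPP1R15A was ENSG00000067082.15 (r = 0.982). The closest to ASNS was ENSG00000109606.13 (r = 0.995). An r does not measure the size of a change. With 4SU+UVA against untreated cells these closest genes changed by log2 0.51, 1.49 and -1.03. ATF4, PPP1R15A and ASNS themselves changed by 1.90, 1.79 and -0.79. Since the 4SU+UVA libraries stand apart for these genes, such an r mostly describes that 1 contrast, and it carries no p. Among members, PPP1R15A came 92nd in likeness to ATF4 (r = 0.94), and the r of ATF4 with ASNS was -0.88.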

How the data were processed

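The authors deposited RPKM values, 1 transcript per gene, for 19580 genes in 12 ribosome footprint libraries. The tool STAR 2.7.10a and the build hg38 are listed, per the submitters' processing notes. How reads were counted, and against which annotation, is not stated there. Because RPKM divides by a library's own reads, all changes are relative. Reads, lengths and totals were recovered from the steps between RPKM values for 15935 of 15937 genes with a read. As a control, 28 of 1000 genes also gave a length at totals moved by 1%.

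Log2(RPKM + 0.5), which understates changes of low genes, was fitted with limma 3.58.1 (R 4.3.3, lmFit and trended eBayes) for the 11510 genes that reached 1 RPKM in 3 or more libraries. The model held 4 group means and 8 residual degrees of freedom, and gave 5 pairwise contrasts and the interaction. P-values were two-sided and adjusted over all genes of a contrast by Benjamini-Hochberg, with a threshold of 0.05. Settings tried were the pseudocount, the low-value filter, median centring, quantile normalization, the variance trend, only the groups compared, a replicate block, voom on recovered reads, and leaving out each library. Replicate numbers were not treated as pairs in the main model. Deviations of same-numbered libraries correlated at -0.0457 to 0.0679, and those of differently numbered libraries at -0.0678 to 0.0619. Such values show no large effect shared by a replicate number. They cannot show how the replicates were run, which the sample titles do not say. The rule named all 10 members and the 3 genes most like ATF4, PPP1R15A and ASNS, of which the closest are printed. The members and lists were chosen with earlier results of these data known. Symbols of the members came with their identifiers. Lists of other pathway genes and cell markers could not be matched and were not analysed here.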

Additional observations from a re-analysis of the deposited data

Results flagged for a closer look

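The UVA effect differed between cells with and without 4SU at 7 of the 10 genes, by the test of the difference itself (limma interaction, adjusted p under 0.05, where 24.8% of all genes passed). It was larger with 4SU, by log2 differences of 2.37 for DDIT3, 1.32 for ATF4, 1.31 for CHAC1, 1.08 for ATF5 and 0.83 for PPP1R15A. It was lower with 4SU at ASNS (-0.57 with 4SU, 0.07 without it, a difference of -0.65). The same held at PSAT1 (-0.40 with 4SU, 0.08 without it, a difference of -0.48). Neither effect without 4SU passed at these genes (limma adjusted p = 0.89 and 0.87). At CHAC1 the effects also had opposite signs, 0.75 with 4SU (limma adjusted p = 0.0086) and -0.57 without it (adjusted p = 0.42). Only the first passed. Groups of 3 libraries are too small for a search for single outlying libraries.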

How the results depend on the processing

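With 4SU+UVA against untreated cells and against 4SU, all 10 members were called in the same directions under every alternative run. CHAC1 came nearest to losing its calls, without 4SU+UVA replicate 3. Its change was then 0.48 against untreated cells (limma adjusted p only just under the threshold) and 0.52 against 4SU (limma adjusted p = 0.046). Of the 950 recomputed log2 changes over 60 results, 914 kept their direction and side of the threshold. Calls with 4SU alone numbered 2 (1 higher, 1 lower), 1 without the low-value filter or with only the groups compared (0 higher, 1 lower), 2 under quantile normalization (0 higher, 2 lower) and 3 under median centring (0 higher, 3 lower), where the median gene was at -0.03 rather than 0.09. With UVA alone they numbered 1, then 2 with a pseudocount of 0.1 and 0 without the variance trend (limma, where SESN2 had adjusted p = 0.05 and 4 members had an unadjusted p under 0.05). Leaving out 1 library gave 10 to 10 calls for 4SU+UVA against untreated and against 4SU, 1 to 2 for 4SU, 1 to 1 for UVA, 9 to 10 for 4SU+UVA against UVA and 7 to 8 for the interaction. With the replicate block the counts were 10, 2, 1, 10, 9 and 7 in the order of the 6 comparisons, and the block changed no call. Signs reversed only among changes that had not passed. For 4SU against untreated these were ATF4 without untreated replicate 2 (leave-one-out range -0.0026 to 0.32), CHAC1 without 4SU replicate 3 (range -0.22 to 0.11), TRIB3 under median centring (-0.03) and SESN2 under median centring (-0.12), quantile normalization (-0.08), without 4SU replicate 1 (-0.14) and without untreated replicate 3 (-0.14; leave-one-out range -0.14 to 0.13). For UVA against untreated they were DDIT3 without UVA replicate 2 (0.23) or untreated replicate 1 (0.12; leave-one-out range -0.37 to 0.23), and ASNS (-0.01) and PSAT1 (-0.01) under median centring. The causes were not tested. DDIT3, PPP1R15A and CHAC1 rested on 20 to 212 reads a library.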
